A study of Mus musculus with 22 samples.

Results

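The comparison covers 5 lungs of mice given 54 µg Mitsui7, the middle dose, and 5 lungs of vehicle controls, 10 of the 22 lungs on the arrays, chosen by their dose labels. Mitsui7 is a multi-walled carbon nanotube. All mice were female C57BL/6 mice, 8 weeks old, and each received a single intratracheal instillation of 40 µl under anaesthesia with Hypnorm and Dormicum. Controls received only the vehicle, saline to which BAL (bronchoalveolar lavage fluid) had been added, and the suspension for 54 µg was diluted in that vehicle. The instillation and the anaesthetics were common to both groups. The right lung was collected 24 hours later, and its RNA was labelled with Cy5 and hybridized against a Cy3-labelled reference RNA pooled from mouse cell lines. Lungs of 6 mice given 18 µg and 6 mice given 162 µg lay on the same 7 slides and entered the same model. Each value below is the log2 ratio of lung to reference RNA on 1 array, so a higher ratio is a higher level in the lung. RNA came from right lung tissue with all its cells, and a change in the number of cells of a type cannot be told apart from a change in RNA per cell.

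Particles that reach the alveoli are taken up by macrophages and meet the airway and alveolar epithelium. Such cells release chemokines, small proteins that attract leukocytes through receptors on the cell surface, and cytokines such as interleukin 6. Interleukin 6 and related signals raise the acute phase proteins, plasma proteins such as the serum amyloid A family, haemopexin and fibrinogen that the liver is known for and that the lung can also make.

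Dose and slide were fixed effects in limma. A gene counts as called where it was above background, changed 1.5-fold or more and had a Benjamini-Hochberg adjusted p no higher than 0.05. SE is the standard error of a log2 fold change, and each adjusted p below is limma's. At 54 µg 70 genes were called, 0.417% of the 16801 named genes expressed. Of these, 45 genes (0.268%) were higher and 25 genes (0.149%) lower than in controls. Log2 fold changes of the genes called higher ran from 0.64 to 5.13 with a median of 1.30, and 32 of them were at least 2-fold and 10 at least 4-fold. Those of the genes called lower ran from -0.61 to -2.05 with a median of -0.90, and 5 were at least 2-fold. The genes called higher thus reached further from the controls than those called lower. Over the 16776 genes whose brightest probe was expressed the median log2 fold change was -0.01, and 47.7% of all expressed genes lay above 0. At an unadjusted p below 0.05 there were 4298 expressed probes, 10.9% of them.

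In 38 of the 45 genes called higher, every mouse at 54 µg with a value lay above every control, and in 19 of the 25 called lower every such mouse lay below every control. Among all expressed genes with a value in each mouse, these shares were 1.46% and 1.77%. The calls were made on the same values, so nothing is read from this. On the 3 slides that held both a control and a 54 µg array, the 54 µg array differed from the control array in the direction of the model on all 3 slides for 67 of the 67 called genes with a value on each. The model's estimate rests in part on these differences and the genes were called on it, so nothing is read from this count either. Over expressed probes the SE had a median of 0.14.

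On these arrays the markers of lung cells were present: the 12 type II alveolar markers (surfactant protein genes among them), the 11 type I alveolar markers and the 10 club cell markers on the array were well above background on all 10 arrays. Between 70.5% and 77.7% of probes were above background on the control arrays and between 58.1% and 78.9% on the 54 µg arrays, the lowest being 54 µg replicate 3. The 54 µg replicates 3 and 5 lay on slides without a control. For the reference genes, the log2 fold change was 0.08 for Hprt (SE 0.11, adjusted p = 0.929), 0.29 for Actb (SE 0.20, adjusted p = 0.787) and 0.24 for Gapdh (SE 0.21, adjusted p = 0.843, values in 3 of 5 treated mice). The changes of all 3 had the other sign in some alternative fits, which are given in the closing section.

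The acute phase proteins held more called genes than any other of the 23 role lists, 5 of 29 expressed members (17.2%), all higher. Of all expressed genes 0.417% were called, the share to set beside this and each list count below. The lists were chosen with earlier results of these data known. Of the 29, 28 lay above 0, and their median log2 fold change was 0.92, beside -0.01 over all expressed genes. The largest change of all called genes was that of serum amyloid A3 (Saa3), an apolipoprotein of the acute phase. Its log2 ratio was -4.18, -1.93, -3.83 and -3.43 in 4 controls and 1.85, 1.75, 0.30, 2.47 and 2.94 in the 5 treated mice, and the value of control replicate 3 was left out as an outlier spot. The groups did not overlap, and the lowest treated mouse was 54 µg replicate 3. Saa3 was 34.9-fold higher, a log2 fold change of 5.13 (SE 0.76, adjusted p = 0.0133).

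Serum amyloid A1 (Saa1) had log2 ratios of -1.23, -1.19, 0.73, -1.23 and -1.73 in controls and 1.74, 2.06, 2.48 and 3.19 in 4 treated mice, with 54 µg replicate 3 left out as an outlier spot. Control replicate 3 stood above the other controls and still below every treated mouse. Its log2 fold change was 3.28 (SE 0.52, adjusted p = 0.0176). The related Saa2 was higher in 5 of 5 mice than in any control, from 2.25 to 4.41 against -0.02 to 2.20, with a log2 fold change of 2.76 (SE 0.64), and missed the threshold at an adjusted p of 0.109. The 3 genes are close in sequence, and probes of Saa1 and Saa2 may share signal.

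Serpina3m and Serpina3c belong to a family of serine protease inhibitors related to antichymotrypsin. Serpina3m had log2 ratios of 0.65, 1.12, 1.91, 0.51 and 0.29 in controls and 2.32, 4.18, 3.81, 3.14 and 3.77 at 54 µg. All treated mice lay above all controls, and the log2 fold change was 2.52 (SE 0.26, adjusted p = 4.33e-04). Serpina3c, which is not on the acute phase list, rose from 2.69, 2.94, 3.11, 2.35 and 1.95 to 3.20, 4.61, 3.43, 3.88 and 3.90, a log2 fold change of 1.505 (SE 0.29, adjusted p = 0.0459). The family has many near copies, so a probe may bind more than 1 of them. Serpina3i, in the same family, had a log2 fold change of 1.38 (adjusted p = 0.0717).

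The gamma chain of fibrinogen (Fgg), the clotting protein, and haemopexin (Hpx), which binds free haem, completed the called acute phase genes. Fgg had log2 ratios of 0.72, 2.09, 2.65, 1.66 and 0.45 in controls and 2.69, 4.23, 2.17, 3.32 and 3.19 at 54 µg. The highest control, replicate 3, lay above 54 µg replicate 3, and the log2 fold change was 2.11 (SE 0.40, adjusted p = 0.0371). Hpx ran from 0.51 to 1.23 in controls and from 1.64 to 3.60 at 54 µg with no overlap, a log2 fold change of 1.73 (SE 0.32, adjusted p = 0.0371). The orosomucoids Orm1 and Orm2 had log2 fold changes of 1.57 (adjusted p = 0.0676) and 1.64 (adjusted p = 0.0994), and neither was called.

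**Figure D1:**
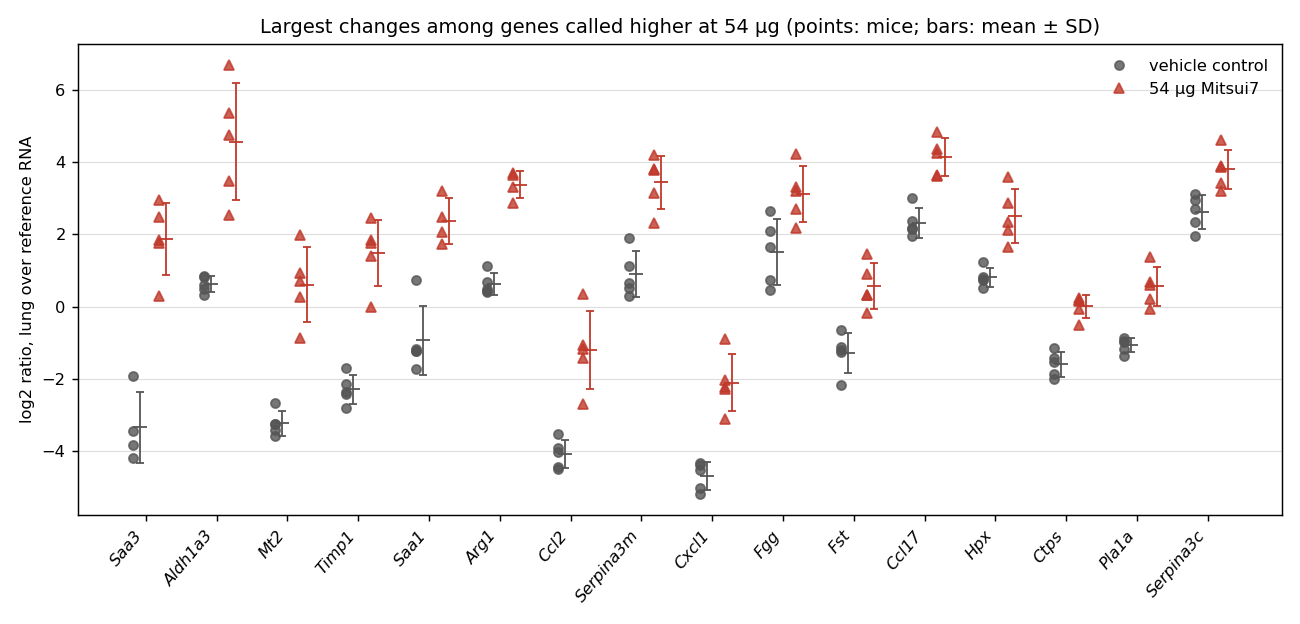
Log2 ratio of lung to reference RNA (vertical axis) in each control (grey circles) and each mouse at 54 µg (red triangles) for the 16 genes called higher with the largest change, with the mean and SD of each group. The groups are apart for each gene other than Fgg, and the widest spread among treated mice is that of Aldh1a3, from 2.54 to 6.67.

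Among CC chemokines, 2 of 17 expressed members were called (11.8%, beside 0.417% of all expressed genes), both higher. The median log2 fold change of the list was 0.86. Ccl2, which draws monocytes through the receptor CCR2, had log2 ratios of -4.43, -3.90, -4.04, -4.48 and -3.54 in controls and -1.43, -1.18, -2.69, -1.07 and 0.35 at 54 µg. Its log2 fold change was 2.67 (SE 0.52, adjusted p = 0.0493), just inside the threshold. Ccl17, a ligand of CCR4 on T helper 2 cells, had 2.15, 2.16, 1.94, 3.02 and 2.36 in controls and 3.62, 4.25, 3.64, 4.38 and 4.84 at 54 µg, a log2 fold change of 1.78 (SE 0.34, adjusted p = 0.0385). All treated mice lay above all controls for both.

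Of the 15 CC chemokines not called, 3 had larger log2 fold changes than Ccl2. Ccl7, another ligand of CCR2, ran from -4.57 to -3.53 in controls and had -0.33, -0.30, -3.09, -0.13 and 0.97 at 54 µg, a log2 fold change of 3.19 (SE 0.68, adjusted p = 0.0742). Ccl24, an eosinophil chemoattractant that acts through CCR3, ran from -3.37 to -1.96 in controls and had 1.72, 1.40, -2.55, 2.27 and 1.97 at 54 µg, a log2 fold change of 3.62 (SE 1.03, adjusted p = 0.212). In both genes 1 treated mouse, 54 µg replicate 3, stood close to or among the controls while the other 4 were far above. Ccl11, also a ligand of CCR3, ran from 0.75 to 1.80 in controls and from 2.20, again in 54 µg replicate 3, to 5.18 at 54 µg, with a log2 fold change of 2.69 (SE 0.68, adjusted p = 0.138). Without that mouse the changes of Ccl7, Ccl11 and Ccl24 were 3.95, 3.33 and 4.77 and past the threshold, as were those of Saa2 (3.05) and Il6 (2.84). That mouse was the lowest treated mouse in each of these genes, so their treated mean rises once it is left out. Nothing is read from their passing the threshold in that fit.

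Of the 17 expressed CXC and other chemokines 1 was called (5.88%, beside 0.417% of all expressed genes), and the median of the list was 0.26. Cxcl1, which attracts neutrophils through CXCR2, had log2 ratios of -4.37, -5.19, -5.02, -4.53 and -4.32 in controls and -2.28, -2.02, -3.11, -2.22 and -0.89 at 54 µg. It was 4.88-fold higher, a log2 fold change of 2.29 (SE 0.33, adjusted p = 0.0132), and its signal was well above background on 3 of 5 control arrays. Cxcl5, of the same receptor, had a log2 fold change of 2.88 (adjusted p = 0.0800) and the interferon-induced Cxcl10 one of 2.92 (adjusted p = 0.0892). Neither was called, Cxcl5 was as high as -0.87 in control replicate 4, and in both 54 µg replicate 3 was the lowest treated mouse, with -2.77 and -1.61. None of the 20 expressed chemokine receptors and none of the 26 expressed cytokines was called. Interleukin 6 (Il6) was not well above background on any control array and was so on 4 of 5 arrays at 54 µg. Its log2 ratio ran from -2.81 to -2.06 in controls and from -1.27 to 1.57 at 54 µg. The mean Cy5 signal alone was 5.53-fold higher, with dimmer control signals raised to the lowest that the scanner takes as above background. That value is a bound with respect to background only and carries no error or slide term. The model gave a lower fold of 5.09, a log2 fold change of 2.35 (SE 0.53, adjusted p = 0.0972).

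As a mean over the expressed members of a list, relative to the control mean, CC chemokines lay between -0.17 and 0.19 in controls and had 0.89, 1.22, 0.30, 1.22 and 1.84 at 54 µg. The acute phase proteins lay between -0.42 and 0.45 in controls and had 0.82, 1.46, 0.69, 0.98 and 1.47. The lowest treated mouse was 54 µg replicate 3 in both, and both groups were apart. The array of that mouse had 58.1% of probes above background and 3.23% of spots marked as outliers, beside 0.369% to 1.99% on the other 4 arrays at 54 µg. The part of these array values in the result was not tested.

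Metallothioneins bind zinc and copper, and genes of this family rise when zinc enters cells or under inflammation. Metallothionein 2 (Mt2) had log2 ratios of -3.43, -2.67, -3.24, -3.57 and -3.24 in controls and -0.86, 0.26, 0.94, 0.71 and 1.98 at 54 µg. The groups were far apart, with 54 µg replicate 1 the lowest treated mouse, and the gene was 13.9-fold higher, a log2 fold change of 3.80 (SE 0.41, adjusted p = 6.46e-04). Slc39a14, an importer of zinc and iron (ZIP14), had a log2 fold change of 1.32 (SE 0.26, adjusted p = 0.0492) and all treated mice above all controls. These were the 2 called of 24 expressed members of the list of metallothioneins and zinc transporters (8.33%, beside 0.417% of all expressed genes). The median of that list was 0.15. Mt1 had a log2 fold change of 1.71 (adjusted p = 0.0641) in 4 treated mice with a value.

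Promoter sequences of 4 called genes are shown, 1 each from the acute phase, metal, chemokine and lowered genes. Ccl2 and Serpina3m have no entry in the promoter table. They come from RefSeq, build GRCm38.p6, which is not the build of the array files, and run from 250 bases before to 50 after the start, 5′ to 3′ on the strand of the gene. Saa3 lies at chr7:46715627-46715926 (minus strand), Mt2 at chr8:94172368-94172667 (plus strand), Cxcl1 at chr5:90890995-90891294 (plus strand) and Asgr1 at chr11:70053874-70054173 (plus strand, 1 of 2 promoters listed for it). Capitals mark matches, on either strand, to TTGCNNAA (C/EBP), TTCNNNGAA (STAT), TGANTCA (AP-1), TGCACNC or TGCGCNC (metal response element) and the NF-kB motif. Matches of the metal response element on Mt2 touch none of the other motifs.
Saa3: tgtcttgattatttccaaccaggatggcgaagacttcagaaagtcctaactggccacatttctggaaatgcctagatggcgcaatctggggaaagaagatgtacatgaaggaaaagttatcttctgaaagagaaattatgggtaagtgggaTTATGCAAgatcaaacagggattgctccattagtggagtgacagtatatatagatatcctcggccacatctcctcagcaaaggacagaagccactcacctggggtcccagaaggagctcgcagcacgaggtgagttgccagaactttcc
Mt2: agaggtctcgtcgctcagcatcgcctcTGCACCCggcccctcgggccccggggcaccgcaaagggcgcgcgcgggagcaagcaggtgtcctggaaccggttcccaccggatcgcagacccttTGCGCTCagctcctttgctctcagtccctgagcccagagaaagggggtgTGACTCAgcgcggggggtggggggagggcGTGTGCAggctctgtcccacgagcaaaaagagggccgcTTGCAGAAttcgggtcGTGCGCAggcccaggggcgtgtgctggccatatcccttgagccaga
Cxcl1: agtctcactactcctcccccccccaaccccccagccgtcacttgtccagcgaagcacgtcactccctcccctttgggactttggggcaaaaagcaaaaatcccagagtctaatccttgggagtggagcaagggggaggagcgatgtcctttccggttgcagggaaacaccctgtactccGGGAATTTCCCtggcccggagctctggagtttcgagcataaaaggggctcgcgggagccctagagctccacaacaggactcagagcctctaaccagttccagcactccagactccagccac
Asgr1: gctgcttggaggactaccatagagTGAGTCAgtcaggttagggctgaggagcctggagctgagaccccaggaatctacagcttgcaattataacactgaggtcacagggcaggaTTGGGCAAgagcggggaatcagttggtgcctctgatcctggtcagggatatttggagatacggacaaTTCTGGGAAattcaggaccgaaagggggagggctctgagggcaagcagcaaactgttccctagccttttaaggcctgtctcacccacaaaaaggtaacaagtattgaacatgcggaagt

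The window of Mt2 held the metal response element at 4 places, beside 28.2% of the promoters of all 27025 genes in the table, and 36.9% of those of the 13095 expressed genes, that held at least 1. That of Saa3 held the C/EBP letters at 1 place, 99 bases before the start, and 12.2% of all genes in the table held them. That of Cxcl1 held the NF-kB motif on both strands in overlapping places, the first 71 bases before the start, and 9.55% of all genes held it. That of Asgr1 held the AP-1, C/EBP and STAT letters at 1 place each, and 8.97%, 12.2% and 9.55% of all genes held these. Of the called genes, 29 higher and 19 lower had a promoter in the table. The NF-kB motif was in 4 of the 29 and 3 of the 19, the C/EBP letters in 6 and 3, the STAT letters in 4 and 3, the AP-1 letters in 5 and 2, and the metal response element in 10 and 7. A match is a run of letters and not a measured site.

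Among the matrix proteases and their inhibitors, 2 of 40 expressed members were called higher (5%, beside 0.417% of all expressed genes). Timp1, an inhibitor of matrix metalloproteinases, had log2 ratios of -2.41, -2.36, -1.69, -2.80 and -2.15 in controls and 1.84, 1.39, -0.01, 1.76 and 2.44 at 54 µg. It was 13.2-fold higher (log2 fold change 3.72, SE 0.63, adjusted p = 0.0249), and 54 µg replicate 3 was again the lowest treated mouse. Adamts9, a protease of the matrix proteoglycans aggrecan and versican, had a smaller change of 0.82 (SE 0.16, adjusted p = 0.0389). Adamts4, another such protease, had 1.54 (adjusted p = 0.0677) and was not called. The median of the list was 0.11. Of the 45 expressed matrix proteins and hyaluronan genes none was called. The smallest p in that list were those of Ccn2 (log2 fold change 0.86, adjusted p = 0.0678) and osteopontin (Spp1, 0.75, adjusted p = 0.101).

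In the list of retinoid genes, 1 of 32 expressed members was called higher and 1 lower (6.25% called, beside 0.417% of all expressed genes). Of the 32, 25 lay below 0, with a median of -0.17. Aldh1a3, which makes retinoic acid from retinaldehyde, had log2 ratios of 0.33, 0.81, 0.84, 0.61 and 0.48 in controls and 3.46, 5.36, 2.54, 4.76 and 6.67 at 54 µg. The controls lay within a narrow band and the treated mice were spread widely above it, and the log2 fold change was 3.84 (SE 0.71, adjusted p = 0.0371). Ces2e, a carboxylesterase, fell from between 0.91 and 1.40 in controls to 0.62, -0.23, -0.36, 0.26 and 0.05 at 54 µg, a log2 fold change of -0.996 (SE 0.14, adjusted p = 0.0114). The retinoic acid receptor Rarb had -0.84 (adjusted p = 0.0971) and was not called.

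Arg1, the enzyme that splits arginine into ornithine and urea and a known product of alternatively activated macrophages, had log2 ratios of 0.43, 0.48, 1.13, 0.69 and 0.41 in controls. In 4 treated mice it had 2.87, 3.65, 3.30 and 3.70, with 54 µg replicate 3 left out as an outlier spot. The log2 fold change was 2.92 (SE 0.51, adjusted p = 0.0331). Arg1 and Saa3 were the called members of the 10 expressed markers of monocyte-derived macrophages, and the other 8 were not called. Slc7a1, a carrier of arginine and other cationic amino acids, was higher by 0.66 (SE 0.11, adjusted p = 0.0177). Spermidine synthase (Srm) was called on both of its probes, with 0.78 and 0.73.

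Further genes called higher act between cells. Follistatin (Fst), which binds activins, had log2 ratios of -2.16, -0.65, -1.20, -1.10 and -1.26 in controls and -0.17, 0.32, 0.91, 0.32 and 1.45 at 54 µg. All treated mice were above all controls, with a log2 fold change of 1.81 (SE 0.34, adjusted p = 0.0371). Hbegf, a ligand of the epidermal growth factor receptor, changed by 1.30 (SE 0.21, adjusted p = 0.0169). It was the 1 called member of 15 expressed ligands and receptors of that family (6.67%, beside 0.417% of all expressed genes). In that family 6 members lay above 0 and 9 below, with a median of -0.08 (0.10 without normalization). Tnfrsf12a (Fn14), the receptor of the cytokine TWEAK, changed by 1.28 (SE 0.19, adjusted p = 0.0133) and was the 1 called of 35 expressed TNF family members (2.86%). Placental growth factor (Pgf) had 0.88, Bmper, a modulator of bone morphogenetic proteins, 0.94, Gdf15, a stress-induced member of the TGF-beta family, 0.77, and Ramp3, a partner of the adrenomedullin receptor, 0.69. Tissue factor (F3), which starts coagulation, was called on 1 of 2 probes at 1.15, and the other, brighter probe had 1.21 (adjusted p = 0.0682).

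Enzymes and stress genes formed the rest. CTP synthase (Ctps), which makes the pyrimidine nucleotide CTP, had log2 ratios of -1.88, -1.53, -1.15, -1.44 and -1.99 in controls and 0.25, -0.05, -0.51, 0.16 and 0.17 at 54 µg. Its log2 fold change was 1.67 (SE 0.27, adjusted p = 0.0169). Ctps was the 1 called of 46 expressed nucleotide synthesis enzymes (2.17%, beside 0.417% of all expressed genes). Pla1a, a phospholipase that acts on phosphatidylserine, rose from between -1.36 and -0.87 to between -0.07 and 1.38, a change of 1.58 (SE 0.27, adjusted p = 0.0246). In the list of cell cycle inhibitors and p53 targets, 3 of 26 expressed members were called higher, 11.5% beside 0.417% of all expressed genes. They were Gadd45g (1.16), Plk3 (0.84) and Gdf15. In that list 17 members lay above 0 and 9 below. Its median was 0.06, and -0.01 in the log2 table that the authors deposited. Of 46 expressed proliferation genes none was called, and their median was 0.03.

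The remaining named genes called higher were Tmem37 (1.46), S100a6 (1.06), Fjx1 (1.09), Tgm2 (0.81), Ifrd1 (0.92), Trmt61a (0.92), Nolc1 (0.64), Krtap11-1 (1.26) and the scaffold protein gene Ahnak (0.88). Ahnak was called on 1 of 4 probes, and its brightest probe had 0.20 (adjusted p = 0.825). Nolc1 was called on its brightest probe while its other probe had 0.03. Likewise the other, dimmer probe of Tgm2 had 0.59 (adjusted p = 0.188). Krtap11-1 ran from 0.22 to 1.23 in controls and from 0.99 to 2.36 at 54 µg, with 2 of 5 treated mice above all controls. Its other probe was not expressed and had 0.125 (adjusted p = 0.873). Gene models and transcripts of unknown function called higher were Gm3459 (1.45), Gm2045 (1.28), Gm4499 (1.37), Gm7932 (1.02), LOC433347 (1.08), A130040M12Rik (1.37) and 2200002D01Rik (1.31). A130040M12Rik was called on 1 of 3 probes. Its brightest probe had 1.12 (adjusted p = 0.128) and the remaining one 0.92 (adjusted p = 0.132).

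Several signalling lists held no called gene. Of 43 expressed NF-kB subunits, feedback and immediate early genes 40 lay above 0, with a median of 0.41, and none was called. The subunit Relb was closest, with 0.66 (SE 0.13, adjusted p = 0.0535). Of 41 expressed cytokine receptors and signal transducers 27 lay above 0, with a median of 0.07, and the feedback inhibitor Socs3 had 1.01 (adjusted p = 0.101). The 38 expressed NRF2 target and antioxidant genes had a median of 0.02 with 21 above 0, and the 32 expressed interferon-stimulated genes a median of 0.01 with 17 above 0. Among prostaglandin, leukotriene and oxysterol enzymes cholesterol 25-hydroxylase (Ch25h) had 2.11 (adjusted p = 0.117), and neither it nor any other of those enzymes was called. The anion carrier pendrin (Slc26a4) had 3.05 (adjusted p = 0.152), in a list whose 1 called member was Slc7a1.

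**Figure D2:**
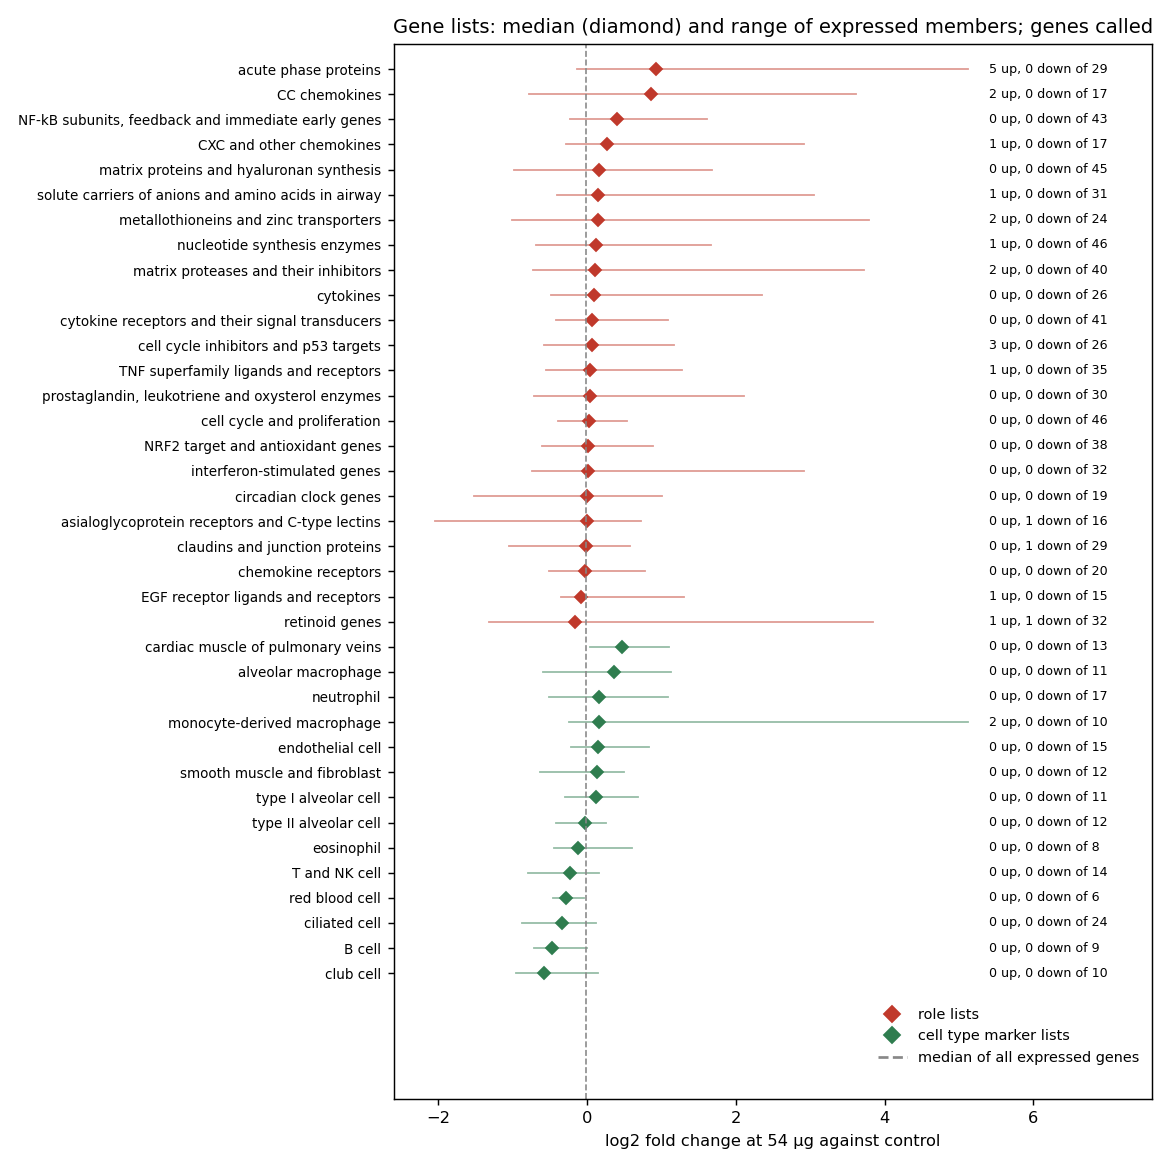
Log2 fold change at 54 µg against control (horizontal axis) for 23 role lists (red) and 14 cell type marker lists (green), with the median as a diamond, the range of expressed members as a line and the genes called beside it. The dashed line is the median of all expressed genes, -0.01, and acute phase proteins and CC chemokines have the highest medians among the role lists, 0.92 and 0.86.

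Genes called lower were led by Asgr1, a subunit of the asialoglycoprotein receptor, which takes up glycoproteins that end in galactose. Its log2 ratio was 1.18, 0.33, 0.32, 0.25 and 1.02 in controls and -1.26, -1.75, -1.004, -1.06 and -1.13 at 54 µg. The groups were apart and the treated mice close together, and Asgr1 was 4.14-fold lower (log2 fold change -2.05, SE 0.18, adjusted p = 8.38e-05), the smallest adjusted p of all called genes. Its other probe had -1.06 (adjusted p = 0.0678). The other subunit, Asgr2, had -0.22 (adjusted p = 0.748), and no other of the 16 expressed genes in the list of asialoglycoprotein receptors and C-type lectins was called.

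Itprid1 had log2 ratios of 3.91, 3.36, 4.07, 2.88 and 3.15 in controls and 1.77, 1.45, 2.24, 1.03 and 2.21 at 54 µg, a log2 fold change of -1.61 (SE 0.32, adjusted p = 0.0493). Igsf10, of the immunoglobulin superfamily, had 0.78, 0.68, 0.86, 0.88 and 0.84 in controls and 0.38, -0.89, -1.19, -0.58 and -0.56 at 54 µg. The controls of Igsf10 were nearly alike, and 54 µg replicate 1 was the closest to them. It was called on 2 of 3 probes, with -1.35 (SE 0.21, adjusted p = 0.0154) and -1.11, and the third probe had -0.18 (adjusted p = 0.791). Entpd8, which breaks down nucleotides outside the cell, had 2.73, 2.57, 2.13, 1.13 and 1.59 in controls and 1.20, 0.93, 0.84, 0.38 and 0.56 at 54 µg, with an overlap of 1 mouse and a log2 fold change of -1.09 (SE 0.18, adjusted p = 0.0177).

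Claudin 8 (Cldn8), a protein of tight junctions, had log2 ratios of 2.35, 2.66, 3.37, 2.30 and 2.07 in controls and 1.28, 2.03, 1.36, 0.63 and 1.00 at 54 µg. It fell by 1.05 on the log2 scale (SE 0.15, adjusted p = 0.0132). Of 29 expressed claudins and junction proteins it was the 1 called (3.45%, beside 0.417% of all expressed genes), and their median was -0.02. Mgat3, the enzyme that adds the bisecting sugar to N-glycans, had 0.38, -0.21, 0.02, 0.58 and -0.15 in controls and -0.83, -1.20, -0.53, -1.57 and -0.25 at 54 µg, a change of -0.996 (SE 0.17, adjusted p = 0.0280). Thrombospondin 3 (Thbs3) was called on both probes, with -0.97 and -0.95, and its groups were apart, 3.12 to 3.61 against 2.29 to 2.81.

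Negr1, a neural adhesion molecule, ran from -0.24 to 0.32 in controls and from -1.13 to -0.38 at 54 µg (log2 fold change -0.95, SE 0.14, adjusted p = 0.0133). Uroplakin 3A (Upk3a), of the urothelial surface, ran from -0.88 to -0.23 in controls and from -1.56 to -1.11 at 54 µg (-0.94, SE 0.15, adjusted p = 0.0174), and was well above background on 2 of 5 arrays at 54 µg. Pdgfrl, related to the platelet-derived growth factor receptors, ran from -1.97 to -1.26 and from -2.95 to -1.93, with an overlap of 1 mouse (-0.91, SE 0.13, adjusted p = 0.0113). The transcript 1500035N22Rik ran from 1.16 to 1.80 in controls and from -0.01 to 1.15 at 54 µg (-0.91, SE 0.16, adjusted p = 0.0337).

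The other genes called lower had log2 fold changes from -0.90 to -0.61. They included Pxylp1, a phosphatase of proteoglycan synthesis (-0.90 on 1 of 2 probes, the other -0.04), and Aldh3a1, which oxidizes lipid and aromatic aldehydes (-0.83). The rest were the insulin-like growth factor 1 receptor Igf1r (-0.70), Castor2 (-0.61), the tetraspanin Tspan6 (-0.66), Rtn2 (-0.76), Morn2 (-0.75), Rida (-0.70), Ccdc28a (-0.68), Olfr414 (-0.71), Gm10639 (-0.74), E030044B06Rik (-0.81) and C230073G13Rik (-0.63). Gm10639 was called on the dimmer of its 2 probes.

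**Figure D3:**
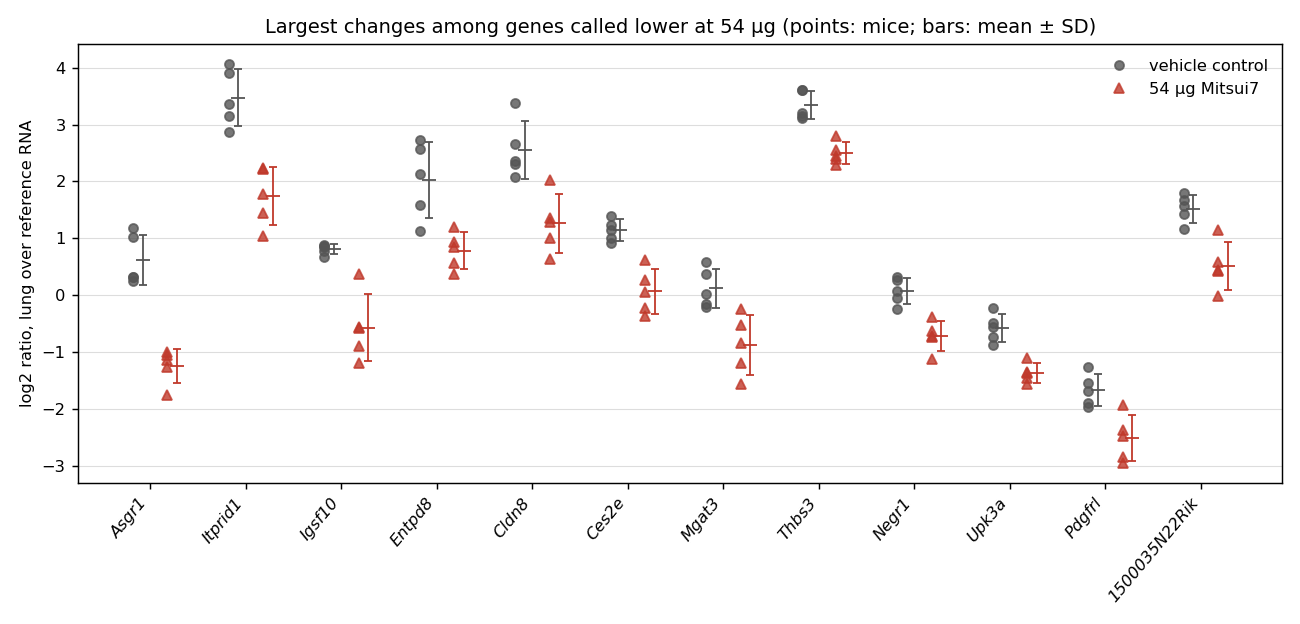
Log2 ratio of lung to reference RNA (vertical axis) in each control (grey circles) and each mouse at 54 µg (red triangles) for the 12 genes called lower with the largest change, with the mean and SD of each group. The groups are apart for each gene other than Entpd8 and Pdgfrl, in each of which 1 treated mouse overlaps the controls.

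A further 18 called probes had no gene name here, 4 of them higher and 14 lower. Of these, 2 probes of the region chr17:56687541-56694616 on the reverse strand (mm9, per the file headers) had -0.92 (adjusted p = 0.0371) and -0.99 (adjusted p = 0.0300), and all treated mice lay below all controls for both. On the transcript AK167816 the log2 fold change was 2.42 (SE 0.28, adjusted p = 0.00133). The study's lists name that probe Pip5k1a, and the 2 probes of Pip5k1a by RefSeq accession had 0.10 and 0.15 and were not called.

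No gene of the 14 cell type marker lists was called apart from Arg1 and Saa3. Of 24 expressed ciliated cell markers 23 lay below 0, with a median of -0.34, and of 10 club cell markers 8, with a median of -0.58. Relative to the control mean, the mean over the club cell markers ran from -0.30 to 0.20 in controls and was -1.45, -0.34, -0.06, -1.01 and -0.16 at 54 µg, and that over the ciliated cell markers ran from -0.16 to 0.08 in controls and was -0.86, -0.28, -0.74, -1.17 and -0.06. Thus 54 µg replicates 1 and 4 were lowest in club cell markers, while 54 µg replicate 5 was at the controls' level in both lists. Cyp2f2, an enzyme of club cells, had a log2 fold change of -0.92 (adjusted p = 0.0905). The part of these markers in the genes called lower was not tested.

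Lymphocyte markers lay mostly below 0, 8 of 9 for B cells (median -0.47) and 10 of 14 for T and NK cells (median -0.22), and the kinase of T cell receptor signalling Lck had -0.79 (adjusted p = 0.0707). The neutrophil markers had a median of 0.17 with 10 of 17 above 0, and a median of -0.18 without the slide term. Their mean ran from -0.61 to 1.34 in controls, the highest being control replicate 2, and from -0.40 to 0.30 at 54 µg, within that range. Eosinophil markers had a median of -0.13 (0.06 without normalization), with the defining marker Epx not expressed above background. The 11 alveolar macrophage markers had a median of 0.36, with 7 above 0 and 4 below. Their mean ran from -0.24 to 0.22 in controls and from -0.07 to 0.29 at 54 µg, so the groups overlapped. Markers of heart muscle, present around pulmonary veins, ran from -2.29 to 2.44 in controls and from -2.19 to 1.90 at 54 µg, a spread wider than in any other marker list. All 13 lay above 0 in the model, with a median of 0.46, and none was called, but without the slide term the median was -0.05.

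The same model gave the other doses against the same 5 controls, and those comparisons share them with the one at 54 µg. It called 422 genes at 18 µg (2.51%) and 1407 at 162 µg (8.37%). Of the 70 genes called at 54 µg, 32 were called in the same direction at 18 µg and 68 at 162 µg. The 2 called at no other dose were Bmper and Adamts9, whose log2 fold changes were 0.23 and 0.48 at 18 µg and 0.40 and 0.39 at 162 µg. For Bmper the adjusted p of the difference was 0.123 (54 against 18 µg) and 0.309 (162 against 54 µg). For Adamts9 these were 0.458 and 0.405, so neither gene was shown to be particular to 54 µg. No gene called at 54 µg was called at 18 µg and not at 162 µg.

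The difference between 54 µg and 18 µg was past the threshold for 2 of the 70 genes, and for 7 of all expressed genes (0.0417%). Mt2 was 2.39 higher on the log2 scale at 54 µg than at 18 µg (adjusted p = 0.0452), with log2 fold changes against control of 1.41 at 18 µg, 3.80 at 54 µg and 4.79 at 162 µg. LOC433347 was 1.10 higher (adjusted p = 0.0452), with -0.02, 1.08 and 1.34. Its log2 ratio ran from 0.35 to 1.88 in controls and from 1.36 to 2.53 at 54 µg. Only 2 of 5 mice at 54 µg lay above all controls. Several other genes were near 0 at 18 µg without passing that test, among them Fst (-0.02 at 18 µg, 1.81 at 54 µg), Serpina3c (-0.07, 1.505) and Ifrd1 (0.07, 0.92), each with an adjusted p of 0.0549 for the difference. For others the doses lay close together, such as Asgr1 (-1.80 at 18 µg, -2.05 at 54 µg, -1.95 at 162 µg) and Ccl17 (1.75, 1.78 and 1.46).

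Between 162 µg and 54 µg no gene passed the threshold (0%), and among the genes called at 54 µg 33 of the 45 higher ones had a larger change at 162 µg and 20 of the 25 lower ones lay further below. Saa3 had 5.13 at 54 µg and 6.37 at 162 µg, and Serpina3m 2.52 and 3.64. Arg1 had 2.92 at 54 µg and 1.76 at 162 µg, and Aldh1a3 3.84 and 2.99. The adjusted p for the difference was 0.707 for Saa3, 0.206 for Serpina3m, 0.598 for Arg1 and 0.861 for Aldh1a3.

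**Figure D4:**
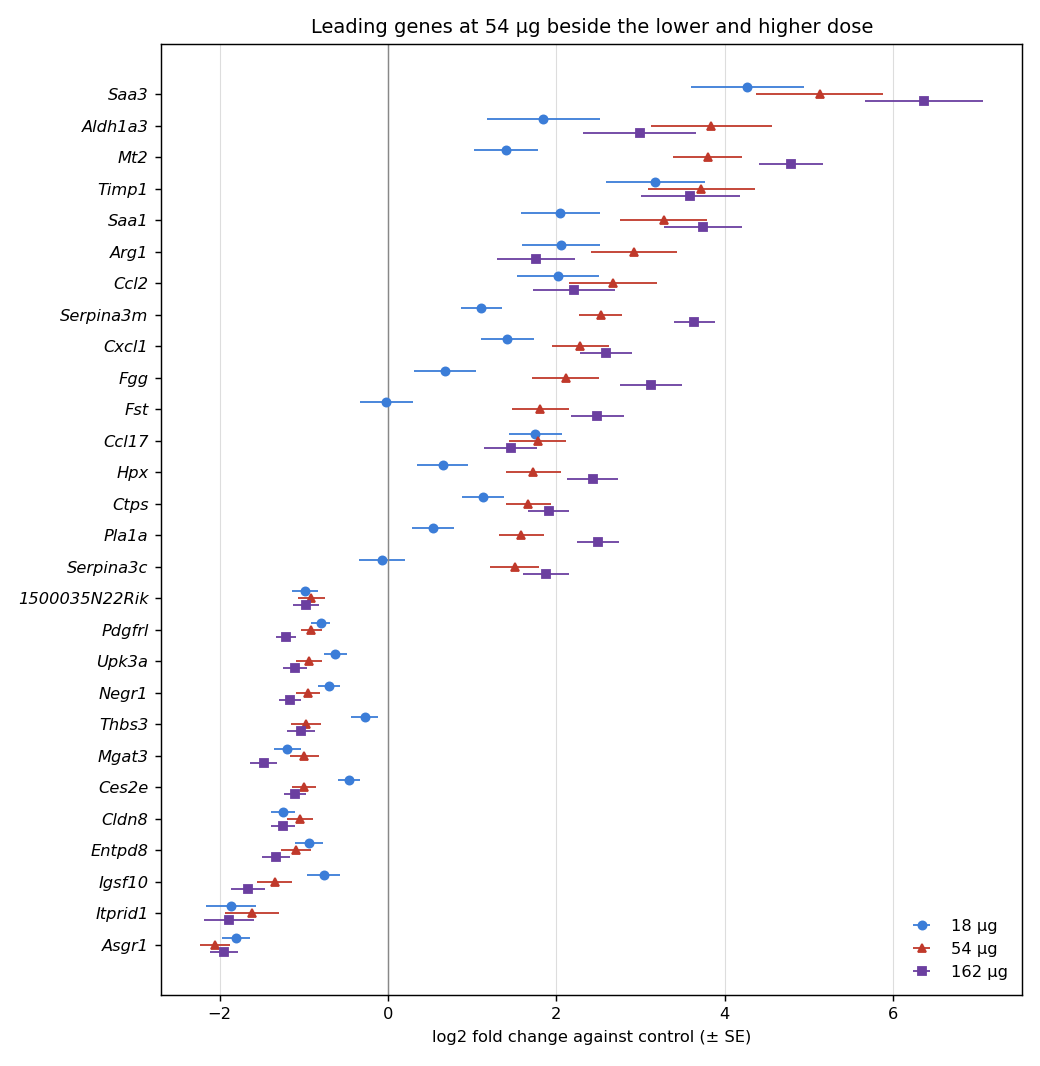
Log2 fold change against control with its standard error (horizontal axis) at 18 µg (blue circles), 54 µg (red triangles) and 162 µg (purple squares) for the 16 genes called higher and the 12 called lower at 54 µg with the largest change. All 3 doses share the same 5 controls, and Fst and Serpina3c lie near 0 at 18 µg, at -0.02 and -0.07.

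Of the 40 genes called higher with a value in each of the 10 mice, 54 µg replicate 1 was the lowest treated mouse in 25 and replicate 3 in 10, and replicate 5 was the highest in 20. The median distance from the control mean over those genes was 0.81, 1.40, 1.26, 1.36 and 1.56 in replicates 1 to 5. With the fitted slide effects removed, replicate 3 was the lowest in 21 and replicate 1 in 15. Over the 25 genes called lower the 5 medians ran from -0.96 to -0.69.

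The number of genes called rested on single mice. Without 54 µg replicate 2 it was 7, without 54 µg replicate 4 it was 8, and without control replicate 3 it was 10. It rose to 190 without 54 µg replicate 3 and 221 without 54 µg replicate 5. Only Asgr1, Mt2, Serpina3m and Gm3459 were past the threshold with each of the 22 mice left out in turn. All 70 genes kept their direction in each of those fits, but they were called on nearly the same arrays, so nothing is read from this.

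**Figure D5:**
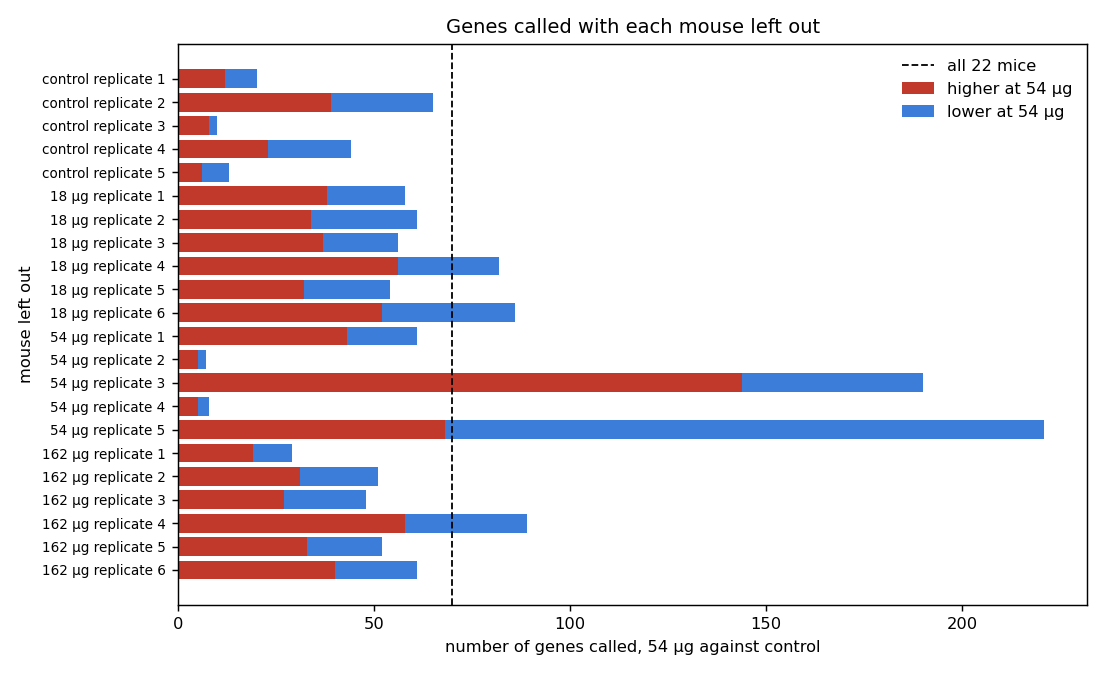
Number of genes called at 54 µg against control (horizontal axis), higher in red and lower in blue, with each of the 22 mice left out in turn. The dashed line is the 70 genes with all mice, and the counts lie between 7 (54 µg replicate 2 left out) and 221 (54 µg replicate 5 left out).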

How the data were processed

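Lung RNA of 22 mice was measured on 2-colour Agilent arrays without dye swap, lung in Cy5 and reference in Cy3. The authors deposited intensity values, the median pixel signals of each spot and of its local background, written by Agilent Feature Extraction, version 10.7.3.1 in the headers, with no background subtraction or normalization. A per-probe table of log2 values that the authors deposited served as an alternative. How that table was normalized is not given in the sources used here.

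Groups came from the dose in the sample labels and slides from the array numbers. Spots marked as outliers were left out, log ratios underwent loess (span 0.3) on each array, and replicate spots were combined by their median, giving 55681 probes. RefSeq accessions named 26413 of them and the probe lists of the study 368, leaving 28900 unnamed. Of 4277 probes named both ways, 4242 had the same name. The brightest probe stands for a gene, and a gene is called if any of its probes is. For the 308 negative control spots of an array, 5% were trimmed, and a probe brighter in Cy5 than their mean by 3 SD or more on 80% of a group's arrays was expressed (39549 probes).

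Dose and slide were fixed effects in limma 3.58.1 (R 4.3.3) over all 22 arrays, with 12 residual degrees of freedom and adjustment over all probes by Benjamini-Hochberg. The study's methods name a shrinkage F test with permuted residuals in place of limma's test. A lower bound on a fold allows for background only. It was taken from mean Cy5 signals after loess and Aquantile, which are open to dye bias, and has no error or slide term. Each mouse is a separate animal, and no pair of arrays of a group was identical (correlations of 0.855 to 0.957 over expressed probes). The fit was run on data simulated from the same model, with independent errors of equal size on all arrays. Such data cannot show how the fit handles arrays of unequal quality, and nothing is read from that run. Figures used Python 3.11.15 and matplotlib 3.10.9.

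The genes with values in each mouse are the 16 called higher and 12 called lower with the largest change, and others named are the called genes, genes the study names at this dose, members of the gene lists with the smallest p and reference genes. The comparison, the members and the lists were chosen with earlier results of these data known. The authors' own fold changes and p-values in the study's lists were not used. The number of arrays limits the precision. Alternatives were other background corrections, normalizations, channels, slide terms, sample sets, filters and thresholds, and leaving out each mouse.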

Additional observations from a re-analysis of the deposited data

Results flagged for a closer look

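In the 5 lungs of a group, a mouse was marked where its gap to the nearest other mouse was a large share of the range by Dixon's criterion. Among 155 groups of 4 or 5 mice for 78 genes this held 10 times, and chance gives about 1 in 20. Among controls the marked log2 ratios were -1.33 for S100a6 (replicate 1), -0.83 for Pgf (replicate 5), 0.62 for Bmper (replicate 3), 0.73 for Saa1 (replicate 3), 1.55 for Aldh3a1 (replicate 4) and -1.75 for Gapdh (replicate 4). At 54 µg they were 1.71 for Gadd45g (replicate 5), 1.58 for Gm2045 (replicate 1), 1.12 for Fjx1 (replicate 1) and -2.55 for Ccl24 (replicate 3), whose next lowest treated mouse had 1.40.

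The change at 54 µg differed from that at 18 µg for 2 of the called genes by the model's test of the difference, 2.39 for Mt2 and 1.10 for LOC433347 on the log2 scale, each at an adjusted p of 0.0452 in limma.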

How the results depend on the processing

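All 70 genes kept their direction under the 16 alternative fits and with each of the 22 mice left out. They were called on these same arrays, so a kept direction was nearly given in advance, and nothing is read from it. None of the 70 was past the threshold in all 16 alternative fits, and the number called moved widely. It was 3 (1 higher, 2 lower) with median centring, 0 without normalization (1000 expressed probes at an unadjusted p below 0.05), 6 (5 higher, 1 lower) in the deposited log2 table, 156 with slide as a random block, 434 with array weights and 37 at 2-fold or more. Fitting control and 54 µg arrays alone with slide gave 703, using only the slides they share gave 523 (201 higher, 322 lower), and leaving out the slides without a control, an alternative chosen after seeing the data, gave 278. With 1 mouse left out the count ran from 7 (54 µg replicate 2) to 221 (54 µg replicate 5), with 8 (54 µg replicate 4), 10, 13, 20 and 44 (control replicates 3, 5, 1 and 4), 29 (162 µg replicate 1) and 190 (54 µg replicate 3) among them. The cause was not tested.

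The labels do not say whether the replicate numbers pair the mice. Correlations of same-numbered deviations ran from -0.169 to 0.406. The highest was that of the replicates numbered 1, which share a slide, so pairing and slide cannot be told apart there. These correlations cannot exclude pairing. A replicate block in place of slide gave 184 genes, and a replicate block with slide gave 0, with 2507 expressed probes at an unadjusted p below 0.05 in limma.

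Hprt changed sign to -0.017 without a slide term (all arrays or control and 54 µg alone) and with the replicate block in place of slide, to -0.0768 in both fits of the shared slides, -0.0026 with array weights, -0.0128 with the replicate block and slide, and -0.0107 without control replicate 4. With the replicate block and slide Actb had -0.0856 and Gapdh -0.038. With 1 mouse left out Hprt ranged up to 0.137. A probe not well above background on any array of a group, as Il6 in controls, gives only a bound.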
